A study of Mus musculus with 3 samples.

Results

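Ganglion-associated fibroblasts are described here from cells that passed through a neuron sort of mouse atrial tissue. They were chosen by a rule on their counts of unique molecular identifiers (UMIs), each of which stands for 1 captured RNA molecule. A barcode is the label of 1 droplet. To be a member it needed 1000 UMIs or more and 500 genes or more, with no more than 20% of its UMIs mitochondrial. It also had to hold under 20 UMIs per 10000 of the neuron genes Snap25, Prph and Stmn2 together. Finally, it needed at least 1 UMI in at least 4 of the 6 genes Col1a1, Col1a2, Dcn, Pdgfra, Lum and Col3a1. Of 8361 deposited barcodes, 7091 passed the depth limits, 1558 of these were under the neuron limit, and 395 met the whole rule. The other 1163 barcodes under the neuron limit served as the comparison.

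The study sorted fluorescent cells from the ganglion-bearing regions of the atria of adult mice by flow cytometry and sequenced them with the 10x Genomics 3′ kit. All animals carried the genotype Baf53b-cre;lox-GFP, in which the promoter of Baf53b (Actl6b), a subunit of a neuronal chromatin remodelling complex, drives Cre and thereby a GFP reporter in neurons. There was 1 library of pooled ganglia (mixed, labelled 2 months old), 1 of anterior ganglia (3 months) and 1 of posterior ganglia (4 months), each from female and male mice, and no untreated or treated arm. The protocol names 10 mice whose tissue was pooled, and no source used here says whether the libraries share animals. Fibroblasts lie outside the cells that the sort was set to collect, and the files hold no positions, so their nearness to ganglia rests on the dissection alone. Region cannot be told apart from library or from the labelled age, and each group is a single library.

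Fibroblasts build and maintain the extracellular matrix: they secrete the chains of fibrillar collagens, the enzymes that modify and crosslink them, and the proteoglycans and microfibrils that organise the fibres. In the heart they descend largely from the epicardium and carry transcription factors such as Tcf21 and Tbx20. Around vessels and nerves, fibroblast-type cells also release growth factors, chemokines and complement proteins, and layered perineurial cells seal off nerve bundles.

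Depth limited what a single barcode could show. Median UMI counts of the members were 4808.5, 4528 and 6830 in the mixed, anterior and posterior libraries, the order in which all sets of 3 values are given, against 4451, 2751 and 4790 in the other barcodes. The library totals were 119825307, 55329380 and 86391988 UMIs. The libraries shared 2 or 3 barcodes pair by pair, none of them a member. The counts are UMIs and the intervals given with them cover counting error only. In the mixed library, the sole one whose feature list holds them, the 11 added transgene and vector sequences had 0 UMIs among 595108 UMIs of members, which allows up to 5.04 CPM (UMIs per 1e+06 UMIs), and eGFP had 3 UMIs in the other barcodes. Actl6b itself had 0, 1 and 0 UMIs in members.

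The label was checked against markers of other cell types, each as a gate of at least 3 of its 6 marker genes with a UMI (3 of 8 for mesothelial genes). Most members carried fibroblast genes without such a gate. Of 395 members, 33 (8.35%) passed the gate for mural cells (smooth muscle and pericytes), 23 (5.82%) that for mesothelium, the cell sheet that covers the heart, and 9 (2.28%) that for perineurium. A further check found 13 in the cardiomyocyte gate, 4 in the glia gate, 3 in the macrophage gate, 2 in the endothelial gate and 1 in the chromaffin gate. Together 86 members (21.8%) passed at least 1 of these, and 309 (74, 71 and 164 per library) passed none. Among the 309, Dpt (dermatopontin, a matrix protein outside the rule) was seen in 92.6% and Pdgfra in 73.5%. The 23 mesothelial-gate members had no UMI of Lum or Dpt and only 2 had Pdgfra, while Upk3b, a mesothelial surface protein, was seen in all 23. None of the 9 perineurial-gate members had a Dpt UMI, and 8 had the tight-junction gene Cldn1. Upk3b and Cldn1 are themselves genes of these gates. The rule thus gathers 2 small sets that go against the fibroblast label, and several values are given with and without them. The values of the 33 mural-gate members were mixed: Acta2, a gene of that gate, was seen in all 33, Dcn in 26 and Dpt in 16.

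Members made up 27.5% of the barcodes under the neuron limit in the mixed library (108 of 393; exact 95% interval 23.1 to 32.2), 21.6% in the anterior (93 of 431; 17.8 to 25.8) and 26.4% in the posterior (194 of 734; 23.3 to 29.8). These 3 intervals overlap. The shares describe what survived dissociation and the sort, not the tissue. Members with 4, 5 and 6 rule genes numbered 25, 51 and 32 in the mixed library, 12, 23 and 58 in the anterior and 19, 45 and 130 in the posterior. Just outside the rule, 60, 19 and 30 barcodes had 3 rule genes, and 51, 12 and 22 of these passed the mural gate.

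The genes of the rule are given as a description. Levels in CPM are taken over the UMIs summed over a group of barcodes in a library. Dcn, the small proteoglycan decorin, stood at 12939, 10265 and 9213 CPM in members against 421, 58.8 and 61.2 CPM in the other barcodes. Col1a1 and Col1a2, the chains of type I collagen, stood at 1035, 1792 and 3466 and at 1731, 2939 and 5395 CPM, against 110.2, 51.2 and 46.6 and 359.7, 311 and 178 CPM in the others. Col3a1 of type III collagen stood at 2171, 3561 and 7441 CPM. The collagens of the rule were thus lowest in the mixed and highest in the posterior library, whereas Dcn ran the other way. Lum, the proteoglycan lumican, stood at 1551, 1396 and 1252 CPM and Pdgfra, a growth factor receptor of fibroblasts, at 139, 359 and 341 CPM. Leaving out the 86 members of other gates gave 1334, 1976 and 4199 CPM of Col1a1 and 18817, 11112 and 10169 CPM of Dcn, in the same order of libraries.

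Dpt (chromosome 1, 164796644 to 164824266, GENCODE vM21 on GRCm38) was not used by the rule. It stood at 867, 1089.8 and 1240.4 CPM in members and at 6.53, 2.52 and 3.27 CPM in the other barcodes, and these groups did not overlap. A Dpt UMI was found in 70.4, 81.7 and 85.6% of members. After every barcode was thinned to 1000 UMIs the share was 56.5, 58.1 and 60.8% in members and 0.351, 0.592 and 0% in the others. In the barcodes over the neuron limit Dpt stood at 0.0172, 0.339 and 0.323 CPM.

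**Figure D1:**
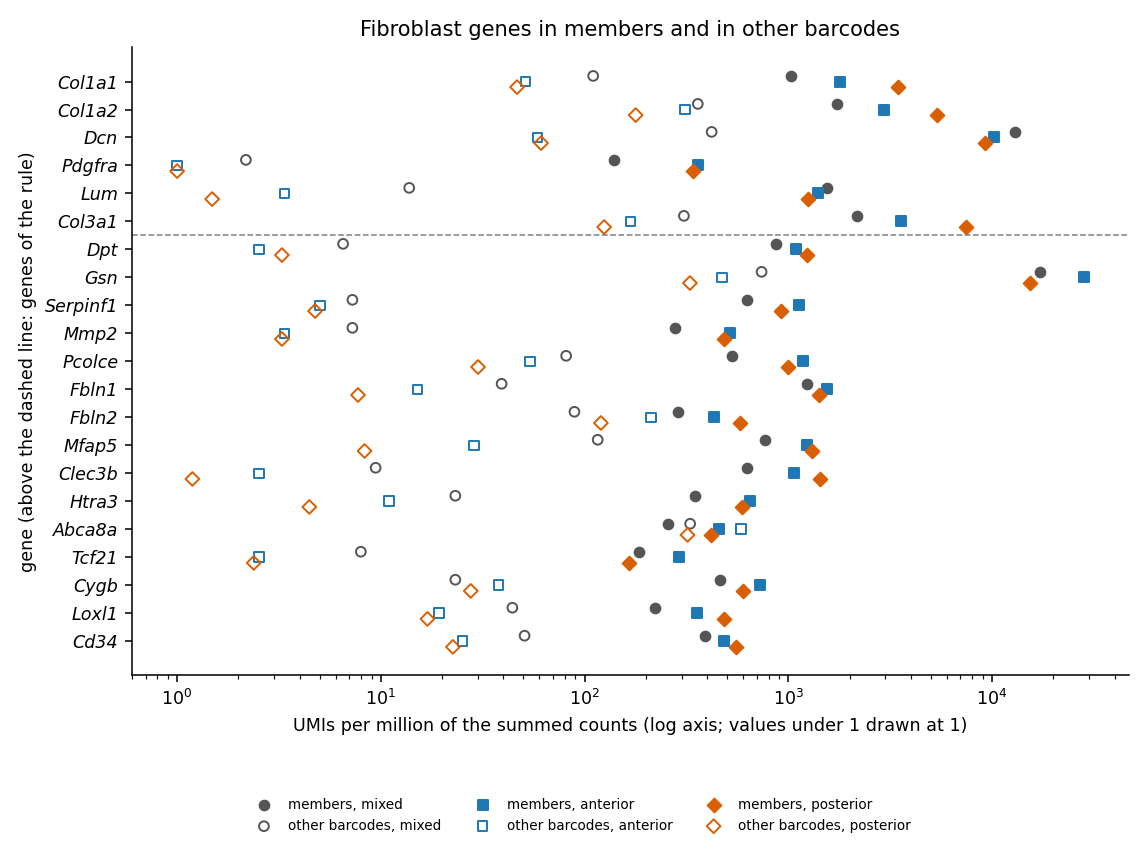
Levels of the rule genes, Dpt and further fibroblast genes in members (filled marks) and in the other barcodes under the neuron limit (open marks), in CPM on a log axis, 1 mark per library. Dpt stood between 867 and 1240.4 CPM in members and at most 6.53 CPM in the others, and the rule genes lie apart by the choice of members.

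Members were compared with the other barcodes over 10381 genes outside the rule, as sums per library, by edgeR's quasi-likelihood test with library as a block and Benjamini-Hochberg adjustment (threshold 0.05). Genes for fibre assembly, collagen crosslinking, growth factor binding and complement were higher in members, and genes of glia, immune, endothelial and heart muscle cells were lower. The call was higher for 1156 genes (11.1% of those tested) and lower for 1345 (13%), with a median log2 fold change of -0.05. Without the posterior library the counts were 720 and 869. A p here measures the spread between these 3 libraries. Genes that sit in the same cells as the rule genes differ partly through the choice of members, and a gene that passed the filter on low counts through its high level in members had to differ. Counts within the lists below are therefore read only against the 11.1% and 13% of all genes, and are not a count over all genes of a list.

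Among called genes with at least 200 CPM in the higher class, the 12 with the highest fold changes were mostly secreted or surface proteins of connective tissue. Inmt, a methyltransferase, had 868 UMIs in members and 5 in the others, at 175, 321 and 435 CPM in members (log2 fold change 8.44 ± 0.73 SE, adjusted p = 8.64e-05, edgeR). Dpep1 (chromosome 8, 123186242 to 123201812), a membrane dipeptidase, stood at 282, 616 and 426 CPM against 2.90, 0.840 and 0.594 CPM (8.40 ± 0.46 on the log2 scale). Clec3b (chromosome 9, 123150946 to 123157432), the plasminogen-binding protein tetranectin, stood at 627, 1073 and 1428 CPM against 9.43, 2.52 and 1.19 CPM (8.17 ± 0.67). All 3 genes were lowest in the mixed library among members, yet higher there than in any group of other barcodes. Dpt had a log2 fold change of 8.13 ± 0.39 (adjusted p = 1.62e-05), and the peptidase inhibitor Pi16 (chromosome 17, 29317680 to 29330593) one of 7.79 ± 0.47. Serpinf1, which encodes the secreted factor PEDF, had 7.35 ± 0.35, and Mmp2, a gelatinase, 6.63 ± 0.40. The matrix proteins Fbln1 and Ccdc80 had 6.42 ± 0.50 and 5.61 ± 0.34, the secreted carboxypeptidase-like Cpxm1 6.23 ± 0.32 and the protease Htra3 5.63 ± 0.54. Tcf21 (chromosome 10, 22817281 to 22820174), a transcription factor of cardiac fibroblasts, was the nuclear factor among the 12, at 185, 292 and 165 CPM against 7.98, 2.52 and 2.38 CPM (5.73 ± 0.36).

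Among fibroblast genes outside the rule, 14 of 15 tested were higher and 0 lower (median log2 fold change 5.42 against -0.05 over all genes). Gsn, the actin-severing protein gelsolin, stood at 17194, 28231 and 15451 CPM against 739.7, 471 and 329 CPM. The lipid transporter Abca8a did not pass the test (-0.03 ± 0.22, adjusted p = 0.955).

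Of 16 collagen chains outside the rule, 8 were higher and 2 lower (median 0.79). The type VI chains Col6a1 and Col6a2, which form beaded filaments around cells, stood at 386, 584 and 701 and 175, 402 and 504 CPM in members, with log2 fold changes of 4.18 ± 0.46 and 4.26 ± 0.45. Col5a1, which sets the width of type I fibrils, Col14a1, which lies on their surface, and Col15a1 of the basement membrane zone were also higher (3.54 ± 0.42, 2.97 ± 0.33 and 2.91 ± 0.33). Col4a1 of the basement membrane did not pass the test: it stood at 185, 275 and 322 CPM in members and 164, 277 and 149.7 CPM in the others (adjusted p = 0.166). Col5a3 and Col23a1 were lower (-0.79 ± 0.22 and -1.96 ± 0.32). Col11a1, Col12a1, Col16a1, Col18a1 and Col4a2 did not pass either. The 8 higher chains were Col5a1, Col5a2, Col6a1, Col6a2, Col6a3, Col8a1, Col14a1 and Col15a1.

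Of 16 genes that process collagen, 14 were higher and 0 lower (median 2.43). They included the procollagen proteinase Adamts2 (4.97 ± 0.37) and Pcolce and Pcolce2 (4.17 ± 0.44 and 5.04 ± 0.70), which enhance a different procollagen proteinase. Also higher were the crosslinking oxidases Loxl1 and Loxl2 (3.88 ± 0.45 and 3.04 ± 0.32) and the chaperone Serpinh1 (2.40 ± 0.31). P4ha2 and Plod1, a prolyl and a lysyl hydroxylase, did not pass (0.14 ± 0.32 and 0.42 ± 0.25). All 10 proteoglycans tested were higher (median 3.27), among them Fmod (4.34 ± 0.30), Vcan (3.35 ± 0.23), Ogn (2.50 ± 0.38) and Bgn (2.79 ± 0.33). Fmod, which regulates collagen fibril growth, stood at 239, 43.1 and 39.4 CPM in members, highest in the mixed library.

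Of 17 elastic fibre genes 16 were tested and all 16 were higher (median 2.60), and Fbn2 was not tested. The fibrillin Fbn1 and the microfibril proteins Mfap4 and Mfap5 had log2 fold changes of 3.78 ± 0.45, 3.94 ± 0.50 and 5.16 ± 0.79. Mgp, an inhibitor of calcification, stood at 14688, 7075 and 7848 CPM against 2026, 742 and 324 CPM (3.65 ± 0.40). Of 13 adhesive glycoproteins, 9 were higher and 0 lower (median 1.74), led by Tnxb, which binds collagen fibrils (4.34 ± 0.53). Fn1, fibronectin, stood at 301, 177 and 909 CPM and was highest in the posterior library. Postn, a protein of wounds and valves, was 176, 189 and 267 CPM in members and 223, 218 and 102 CPM in the others and did not pass (adjusted p = 0.447). Of 12 matrix proteases and inhibitors, 9 were higher and 0 lower (median 2.63), with Mmp3 at 4.86 ± 0.24 and Timp1, an inhibitor of such proteases, at 4.88 ± 0.22.

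**Figure D2:**
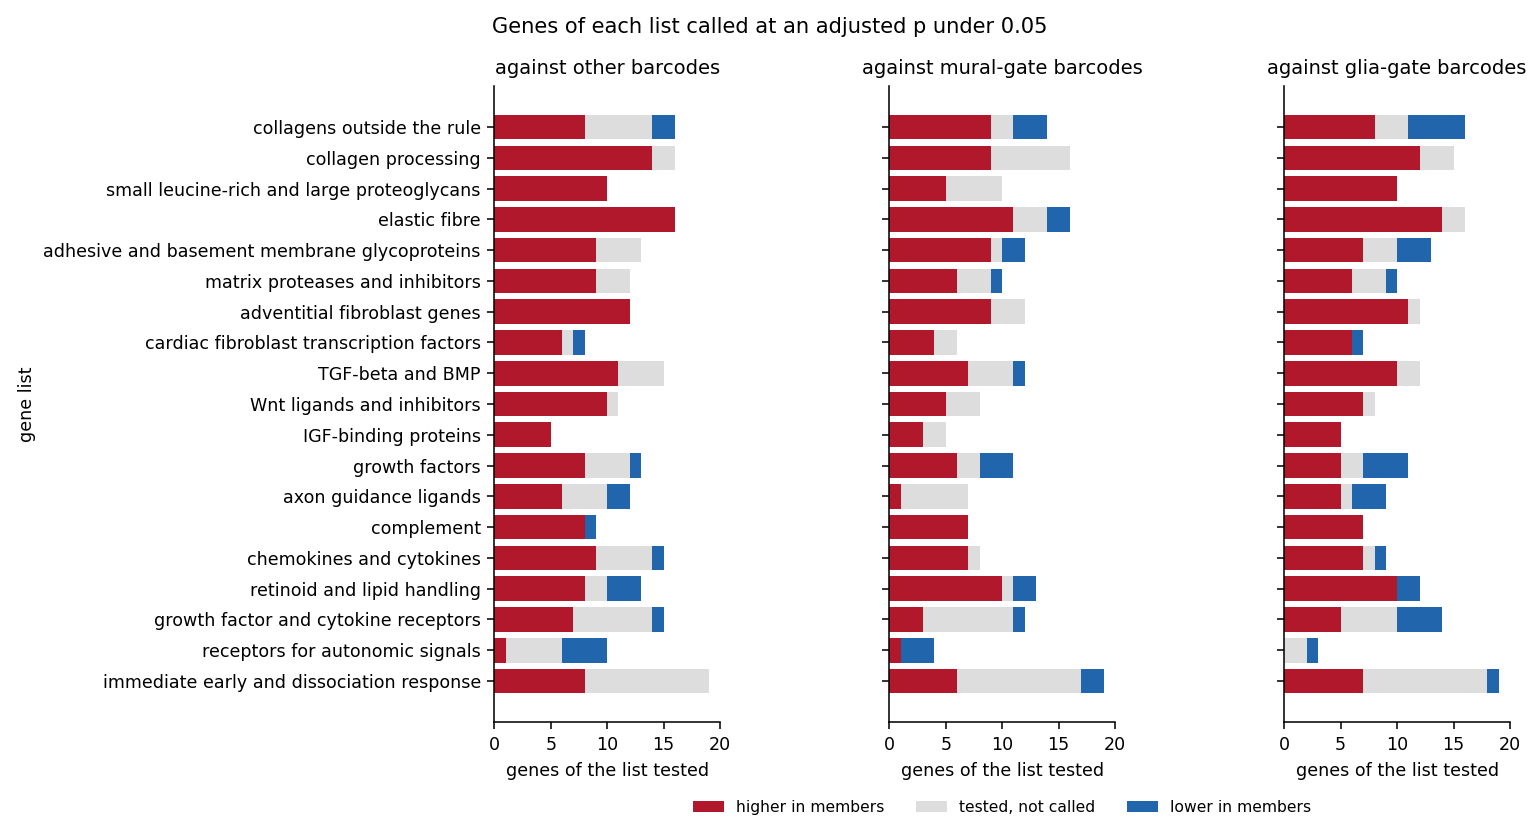
Number of genes of each list that were higher, lower or not called in members, with a panel for each comparison (other barcodes, mural-gate and glia-gate barcodes), by edgeR's quasi-likelihood test at an adjusted p under 0.05. Against the other barcodes, all 10 proteoglycans and all 16 tested elastic fibre genes were higher, while 5 of 10 proteoglycans were higher against the mural gate.

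Lists that mark kinds of fibroblast were compared next. All 12 adventitial genes, which mark fibroblasts of vessel walls and organ surfaces, were higher (median 2.62). They include Pi16, Cd34, a sialomucin of stromal and endothelial cells, at 388, 481 and 556 CPM (4.02 ± 0.35), and Ly6a, at 294, 632 and 1090.5 CPM (2.42 ± 0.25). Reads of Ly6a and Ly6c1 can be shared with close relatives in the same gene family, so those 2 values are less certain. Of 8 cardiac fibroblast transcription factors, 6 were higher and Hand2 was lower (-1.39 ± 0.20), at 87.4, 86.2 and 47.0 CPM in members. In barcodes over the neuron limit, which were not part of that test, Hand2 stood at 339.8, 416 and 356 CPM. It was also lower against the glia gate, but against the mural gate it did not pass (0.63 ± 0.27), with 54.5, 48.8 and 37.4 CPM in mural-gate barcodes. Meox1, a homeobox factor, stood at 181, 137 and 93.3 CPM and had 4.04 ± 0.26. Of 5 genes reported for fibroblasts inside nerves, 4 were tested and 3 were higher: Sox9 (5.12 ± 0.28), Wif1 (3.90 ± 0.50) and Abca9 (1.80 ± 0.30), with Etv1 at 0.04 ± 0.26 and not called. Wif1, a secreted Wnt inhibitor, stood at 286, 19.2 and 36.6 CPM and came from 170, 8 and 53 UMIs, most of them in the mixed library.

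None of the 4 perineurial genes tested was called in either direction, and Cldn1 and Ocln were not tested. Of 9 activated-fibroblast genes tested, 4 were higher (Cilp, Comp, Cthrc1 and Ccn2) and 2 lower. Cilp, a cartilage-type matrix protein, had 66, 49 and 226 UMIs in members and 0 in the other barcodes. The smooth muscle genes Acta2 and Tagln were the 2 lower ones (-1.11 ± 0.27 and -1.34 ± 0.28). Acta2 stood at 4574, 754 and 448 CPM in members and at 73.9, 12.6 and 59.9 CPM in the 309 members of no other gate. The summed level of the 6 mural markers moved with it, at 7866, 1535 and 927 CPM in all members and 222, 62.9 and 138 CPM in the 309. These markers, Acta2 among them, set the mural gate, so a fall on leaving out its members follows from the choice. Of 8 mesothelial genes, 7 were higher, but Upk3b stood at 0 CPM in all 3 libraries once the members of other gates were left out. Upk3b is a gene of the mesothelial gate, so its fall also follows in part from the choice.

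Genes for secreted signals followed. Of 15 TGF-beta and BMP genes tested, 11 were higher and 0 lower (median 1.59). The activin and BMP antagonists Fst and Nbl1 had log2 fold changes of 4.09 ± 0.27 and 2.79 ± 0.21, and the follistatin-like protein Fstl1 had 2.95 ± 0.37. Gdf10, a ligand of the family, stood at 25.2, 93.4 and 86.4 CPM in members against 1.45, 0 and 0 CPM. The ligand Tgfb1 did not pass (-0.32 ± 0.21), whereas Tgfb2 and Tgfb3 did (1.20 ± 0.24 and 1.98 ± 0.25). Of 11 Wnt genes tested, 10 were higher and 0 lower (median 2.86): the ligand Wnt5a (4.18 ± 0.40), and among antagonists Frzb (5.61 ± 0.42) and Sfrp1 (2.10 ± 0.27). Sfrp1 stood at 178, 479 and 416 CPM in members and at 240.1, 219.9 and 252 CPM in glia-gate barcodes, and these ranges overlapped.

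Of 13 growth factors tested, 8 were higher and 1 lower (median 0.90). Igf1, which acts on many cell types including neurons, stood at 355, 560.5 and 560.4 CPM against 31.2, 12.6 and 26.1 CPM (4.47 ± 0.36). Vegfd, a lymphatic growth factor, had 3.90 ± 0.46 and Csf1, the growth factor of macrophages, 2.27 ± 0.21. Ptn, pleiotrophin, was the lower gene: it stood at 264, 151 and 129.9 CPM in members, 719, 1095 and 757 CPM in the other barcodes and 2935, 2429.6 and 2588 CPM in glia-gate barcodes. All 5 IGF-binding proteins tested were higher (median 2.18), with Igfbp6 at 1963, 833 and 1235 CPM in members and 588, 318 and 998 CPM in the 309 members of no other gate.

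Neurotrophic ligands were low in members. Of 13 listed, 5 had enough counts to be tested. Bdnf stood at 10.1, 35.9 and 29.0 CPM and Ntf3 at 45.4, 21.6 and 6.22 CPM, and neither passed (2.51 ± 0.87 and 0.44 ± 0.30). Gdnf had 3, 0 and 0 UMIs. Of 12 axon guidance ligands tested, 6 were higher and 2 lower (median 0.91). Slit3, a repellent of axons, stood at 63.9, 146 and 155 CPM (2.73 ± 0.47), Ntn1, netrin, at 62.2, 95.8 and 66.3 CPM (2.15 ± 0.28) and Sema3d at 70.6, 62.3 and 73.9 CPM (2.14 ± 0.38). Sema3b and Sema3e were lower (-1.99 ± 0.23 and -3.76 ± 0.46).

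Receptors for autonomic transmitters were mostly too low to test: 10 of 27 passed the filter, 1 was higher and 4 were lower (median -0.54). Ramp2, a partner of the adrenomedullin receptor, was the higher gene, at 198, 299 and 153 CPM against 125, 159 and 94.8 CPM (0.84 ± 0.19). Ramp1, Adora2a, Chrm2 and Ednrb were lower. Chrm2, the muscarinic receptor of heart muscle and neurons, had 2, 3 and 18 UMIs in members, and Ednrb, an endothelin receptor, stood at 8.40, 7.19 and 1.38 CPM against 1059, 610.0 and 843 CPM in glia-gate barcodes. At this depth a receptor with a few UMIs in all members cannot be called absent. Of 15 growth factor and cytokine receptors tested, 7 were higher and 1 lower (median 0.63), with Egfr at 3.06 ± 0.44, the interleukin-1 receptor Il1r1 at 2.92 ± 0.37 and Pdgfrb at 1.84 ± 0.23. Ngfr, the low-affinity neurotrophin receptor, stood at 6.72, 16.8 and 18.7 CPM in members against 228, 366 and 372 CPM over the neuron limit.

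Of 15 chemokine and cytokine genes tested, 9 were higher and 1 lower (median 2.13). Ccl11, which attracts eosinophils, stood at 133, 182 and 163 CPM against 0, 0 and 1.19 CPM (7.83 ± 0.41). Il33, an alarm cytokine of stromal nuclei, stood at 126, 108 and 235 CPM (4.76 ± 0.63). The neutrophil chemokine Cxcl1 reached 297, 477 and 677 CPM (3.46 ± 0.24), and the cytokine Il6 stood at 25.2, 127 and 145 CPM (3.31 ± 0.46). The related gene Cxcl2 was lower (-3.83 ± 0.59). The B cell chemokine Cxcl13 had 6, 0 and 1250 UMIs in members, in 15 of 194 posterior members (7.73%), and did not pass (-0.03 ± 1.54, adjusted p = 0.994).

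Of 9 complement genes, 8 were higher and 1 lower (median 3.36). C3 (chromosome 17, 57203970 to 57228136), the central component, stood at 1220.0, 2508 and 5845 CPM against 191, 144 and 151 CPM (4.13 ± 0.49). Without members of other gates C3 stood at 709, 2684 and 5691 CPM. The inhibitor Serping1 stood at 872, 1883 and 2223 CPM (4.32 ± 0.36). The proteases C1s1 and C1ra had 3.65 ± 0.42 and 3.85 ± 0.39, and C4b had 2.02 ± 0.28, where reads can be shared with its close copy C4a. Cfp, properdin, which myeloid cells make, was lower (-4.67 ± 0.44).

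Of 13 retinoid and lipid genes tested, 8 were higher and 3 lower (median 2.06). The retinaldehyde dehydrogenases Aldh1a1, Aldh1a2 and Aldh1a3 had 2.06 ± 0.40, 2.42 ± 0.37 and 6.17 ± 0.46. Aldh1a2 stood at 104, 26.3 and 48.4 CPM in all members and 6.16, 28.3 and 13.6 CPM without the members of other gates. Lpl, lipoprotein lipase, stood at 195, 299 and 227 CPM (1.66 ± 0.30). Apoe was lower (-1.68 ± 0.33) at 6533, 8622 and 3946 CPM in members, against 64878, 58401 and 64515 CPM in glia-gate barcodes. Apoe also stood at 658, 596 and 505 CPM in barcodes over the neuron limit.

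**Figure D3:**
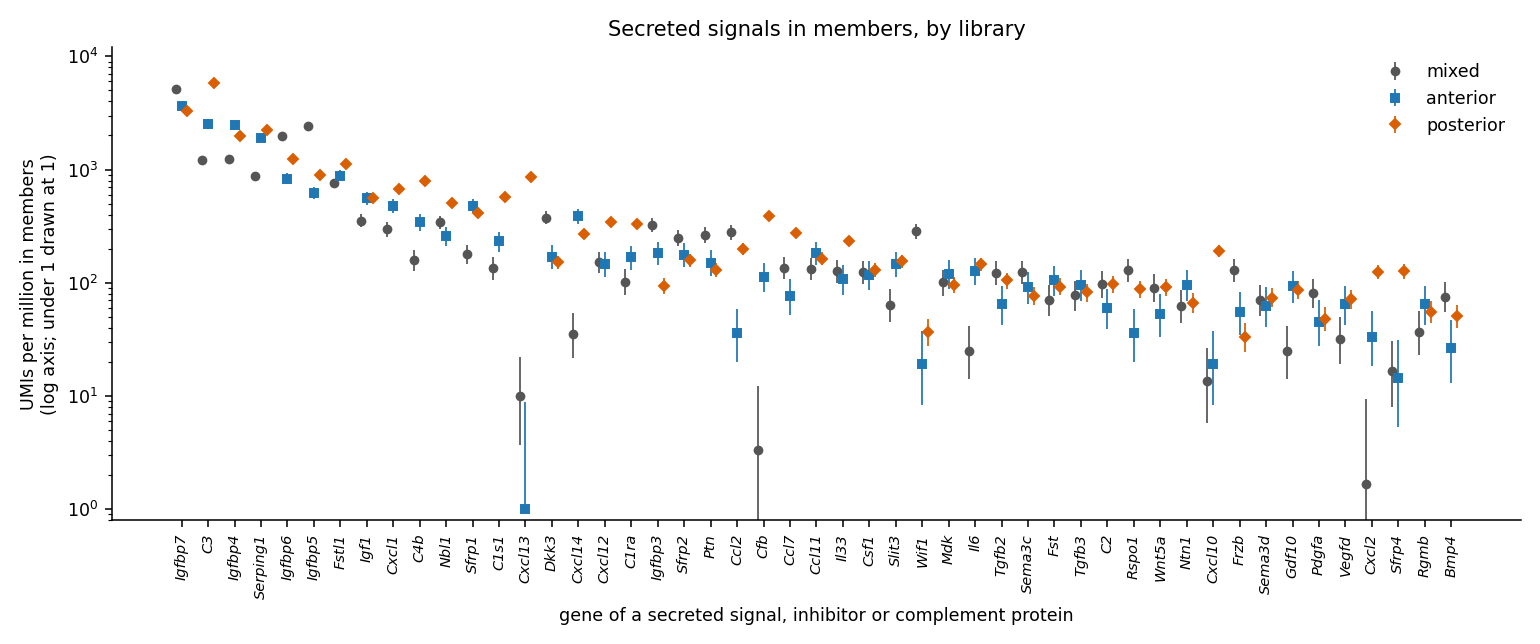
Levels of secreted signals, of those with at least 50 CPM on average in members, in CPM on a log axis, 1 mark per library with exact Poisson 95% intervals that cover counting error (values under 1 CPM are drawn at 1). C3 stood highest in the posterior library, and Cxcl13 lay at 0 in the anterior library and reached 864 CPM in the posterior.

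Of 19 immediate early and dissociation genes, 8 were higher and 0 lower (median 0.43), with Myc at 2.31 ± 0.21 and Fos at 0.16 ± 0.25, the latter not called. Hspa1a, a heat shock gene, stood at 1220.0, 129 and 100.2 CPM in members and 1301, 191 and 192 CPM in the others, highest in the mixed library in both groups. Neuron genes outside the rule (8 genes) summed to 217, 539 and 619 CPM in members and 548, 1156 and 1047 CPM in the others, with Actl6b at 0 in the mixed and posterior members. Their part in the level of single genes was not tested. Of markers of other cell types, all 6 glial, all 6 macrophage and all 6 cardiomyocyte genes were lower, as were 5 of 6 endothelial and 4 of 6 mural genes. Macrophage markers summed to 6.72, 7.19 and 234 CPM in members, and to 6.16, 3.15 and 9.08 CPM without the members of other gates. They set the macrophage gate, so the posterior fall follows in part from the choice.

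Mural cells are the contractile neighbours of fibroblasts in vessel walls, and 88, 26 and 37 of the other barcodes passed their gate. Over 5957 genes tested, 722 were higher in members (12.1%) and 635 lower (10.7%), with a median log2 fold change of 0.04. Members that pass that gate too entered this comparison on the fibroblast side, and without all members of other gates 776 were higher and 722 lower. By the same limit of 200 CPM, 9 of the 12 genes with the highest fold changes had 0 UMIs in mural-gate barcodes. Such genes passed the filter on low counts through members alone, so that they differ was fixed in advance. Their folds are lower bounds from 3 counts over all 3 libraries. They were at least 329.7-fold higher for Clec3b, at least 156-fold for the secreted protein Cytl1, at least 119-fold for Dpep1, at least 99.1-fold for Inmt and at least 74.9-fold for Cpxm1. For Upk3b, Cxcl14, Olfml3 and Apod the bounds were 68.0, 65.3, 56.2 and 45.8. Upk3b, a gene of the mesothelial gate, stood at 0 CPM in the 309 members of no other gate. Cytl1 stood at 481, 24.0 and 741 CPM in members and at 533, 6.29 and 24.5 CPM without members of other gates. C3 had 10232 UMIs in members and 6 in mural-gate barcodes (8.69 ± 0.44).

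Matrix genes were less one-sided against mural cells. Of 10 proteoglycans, 5 were higher: Fmod, Podn, Omd, Vcan and Prelp. Ogn and Bgn did not pass (-0.21 ± 0.18 and 0.41 ± 0.18), with Ogn at 649, 994 and 859.6 CPM in members and 783, 1095 and 1076 CPM in mural-gate barcodes. Of 16 elastic fibre genes tested, 11 were higher and 2 lower, the lower ones being Eln, elastin (-0.72 ± 0.18), and Ltbp1 (-0.94 ± 0.21). Of 14 collagens tested, 9 were higher, and Col4a1, Col4a2 and Col18a1 of basement membranes were lower (-0.62 ± 0.19, -1.16 ± 0.24 and -2.38 ± 0.26). Igf1 (5.28 ± 0.38) and all 7 complement genes tested were higher. Ntf3, a neurotrophin, was lower (-2.00 ± 0.39), at 45.4, 21.6 and 6.22 CPM in members against 107, 97.7 and 66.5 CPM. The receptors Npy1r for neuropeptide Y and Ramp1 for CGRP were also lower (-2.79 ± 0.31 and -3.19 ± 0.37).

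The 8 lowest named genes against mural-gate barcodes were mostly genes of muscle cells: Actc1 (-6.23 ± 0.50), Des (-5.36 ± 0.40), Pcp4l1 (-4.87 ± 0.57), Pln (-4.64 ± 0.33), Tcap (-4.62 ± 0.25), Mylk4 (-4.23 ± 0.54), Cnn1 (-4.16 ± 0.61) and the lipid carrier Fabp4 (-4.02 ± 0.44). Des, the muscle intermediate filament desmin, stood at 33.6, 7.19 and 35.9 CPM in members and 558, 314 and 2837 CPM in mural-gate barcodes, and the groups did not overlap. With members taken at 3 rule genes or more, Mylk4 lost its call (log2 fold change -0.01, adjusted p = 0.997, edgeR).

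Glia-gate barcodes (83, 150 and 163 of the others) carry markers of satellite glia and Schwann-type cells, the other support cells of a ganglion. Over 7405 genes tested, 1594 were higher in members (21.5%) and 1429 lower (19.3%), with a median of 0.02. All 12 genes with the highest fold changes at that limit of 200 CPM had 0 UMIs in glia-gate barcodes. They too passed the filter through members alone and had to differ, and their folds are again lower bounds. They were at least 750.4-fold higher for Fbln1, at least 629-fold for Clec3b and at least 625-fold for Mfap5. For Ly6a, Fmo2, Cytl1, Ptgis, Nupr1, Igf1, Cd34 and Pcolce2 the bounds lay between 260.3 and 439.7. Ptgis makes prostacyclin, and Nupr1 is a stress-response factor of the nucleus. Ptgis stood at 691, 402 and 502 CPM in members. The 8 lowest named genes were glial: Luzp2, Hes5, Gm2115, Cmtm5, Kcnj10, Foxd3, Gpr37l1 and Ednrb, with log2 fold changes from -8.60 to -7.42. Gpr37l1, a receptor of glia, had 10 UMIs in members and 1274 in glia-gate barcodes.

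All 10 proteoglycans were again higher, and 11 of 12 adventitial genes. Of 16 collagens tested, 8 were higher and 5 lower, among the latter Col16a1, Col12a1 and Col5a3 (-1.16 ± 0.20, -1.11 ± 0.21 and -2.33 ± 0.20). Sparcl1, an adhesion-modulating matrix protein, was lower as well (-1.48 ± 0.16), and Fbln2 and Sparc did not pass (0.28 ± 0.17 and 0.36 ± 0.22). Sparc stood at 3036, 3219 and 5707 CPM in members and 4098, 3077 and 2833 CPM in glia-gate barcodes, overlapping ranges.

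The members were also clustered among themselves (Leiden, resolution 0.5), which gave 7 clusters. This is a description with no test, since the same genes made the clusters, and sizes are not compared between libraries. Cluster 1 (116 cells) was led by Pi16, Pcsk6, Nid1 and Mfap5, and adventitial genes summed to 11559.8 CPM there and 5533 CPM in the other members. Cluster 2 (108 cells) was led by Hspa1a, Ecrg4, Prg4 and Comp. Its cardiac transcription factor sum was 1417 against 553 CPM, and its nerve fibroblast sum 723 against 195 CPM. Of its cells 59 came from the mixed library, and they held 78.0% of that library's 726 Hspa1a UMIs in members. In the mixed library 65.7% of members had a Hspa1a UMI. Cluster 3 (76 cells) was led by Lcn2, Cxcl14, Ccl7, Cfb, Serpina3n and C3, and its complement sum was 17944 against 6605 CPM.

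Cluster 4 (36 cells) was led by Cxcl13, Trf, Inmt and Enpp2. Of its cells 34 came from the posterior library and 0 from the anterior, so library and cluster cannot be told apart. Cluster 5 (28 cells) was led by Acta2, Tagln, Tpm2 and Myh11 and held 27 mural-gate members. Cluster 6 (22 cells) was led by Upk3b, Igfbp5, Lgals7 and Krt19, and all 22 passed the mesothelial gate. Cluster 7 (9 cells) was led by Klf5, Ptch1, Nr2f2 and Sfrp5, and all 9 passed the perineurial gate. Dpt was seen in 80.6% to 100% of the cells of clusters 1 to 4, in 39.3% of cluster 5 and in none of clusters 6 and 7. No cluster is given a cell type name.

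**Figure D4:**
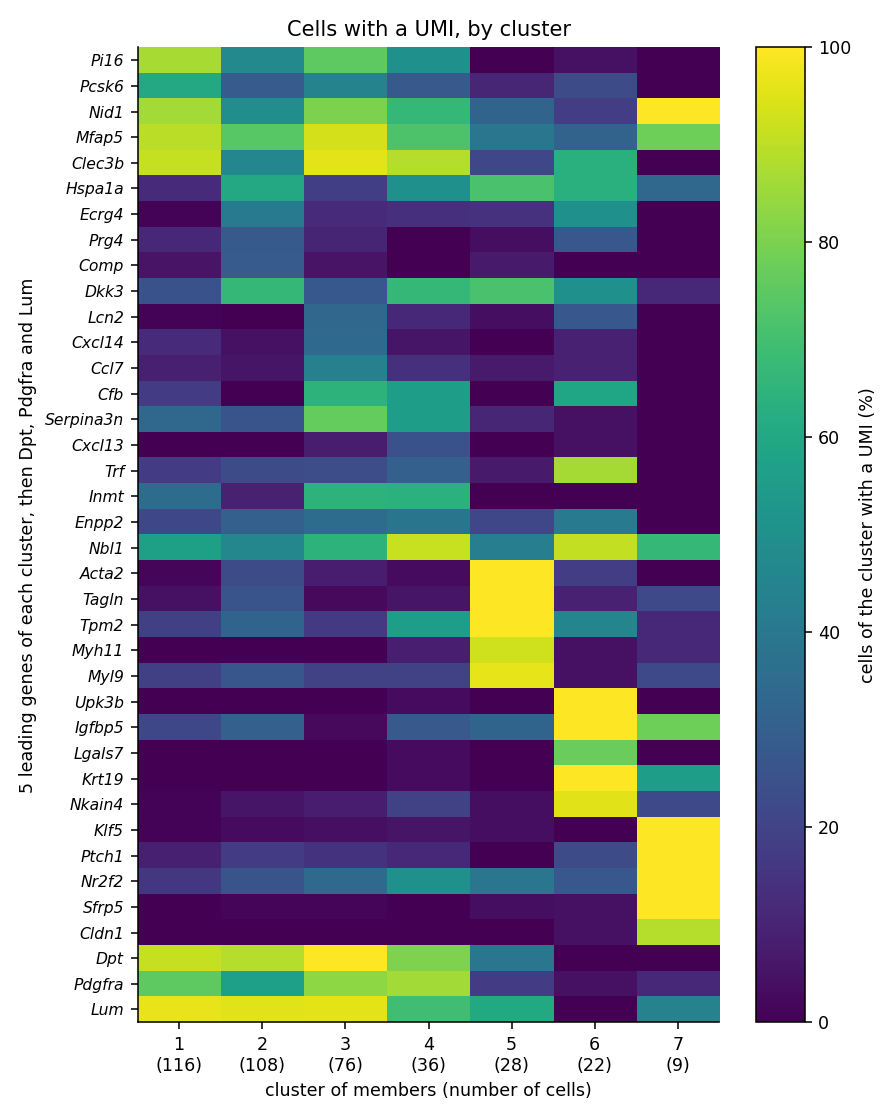
Share of the cells of each cluster with a UMI of a gene, in percent by colour, with clusters as columns (number of cells in brackets) and the 5 leading genes of each cluster, then Dpt, Pdgfra and Lum, down the side. Dpt was seen in 80.6% to 100% of cells of clusters 1 to 4, and Acta2, Upk3b and Klf5 in all cells of clusters 5, 6 and 7.

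Anterior and posterior members were compared as sums over 93 and 194 cells. Shares of members with a UMI are given here without thinning, and posterior members were deeper (median 6830 against 4528 UMIs). There is 1 library per region, hence no test, and intervals cover counting error only. Some acute-phase genes, 4 of 7 complement genes and 2 of 5 chemokine and cytokine genes compared stood over 2-fold higher in the posterior library. A small set with Apoe, Mt1 and Tbx20 stood higher in the anterior. The chemokine Cxcl14 was also higher there, at 386 against 270 CPM, which is under 2-fold. It was seen in 16 anterior and 29 posterior members, and the 5 cells with most held 76.4% and 71.3% of its UMIs. Over the 688 genes that in the higher library reached 200 CPM, 20 UMIs and 10% of members, the log2 ratio of anterior to posterior (50 CPM added) had a median of 0.02 and an SD of 0.45. It passed 2-fold towards the anterior in 6 genes (0.872%) and towards the posterior in 19 (2.76%), and without members of other gates 11 genes passed it towards the anterior. None of the 15 fibroblast genes outside the rule passed 2-fold (median 0.11), and of the rule genes Col3a1 alone passed it, towards the posterior.

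Of 7 complement genes compared, 4 passed 2-fold towards the posterior (median -1.10). C3 stood at 2508 CPM in the anterior members against 5845 in the posterior, a ratio of 0.429 (95% interval 0.402 to 0.458). It was seen in 69 of 93 (74.2%) anterior and 156 of 194 (80.4%) posterior members. Cluster 3, with 15 anterior and 58 posterior cells, held 47.7% of the anterior and 53.9% of the posterior C3 UMIs, and cluster 4, with 34 posterior cells and none from the anterior, held 16.2% of the posterior ones. Within cluster 1, C3 stood at 1964 and 2913 CPM (log2 -0.56), which is under 2-fold. Cfb, complement factor B, stood at 113 and 388 CPM. Without the members of other gates, C3 stood at 2684 and 5691 CPM. In the other barcodes C3 stood at 144 and 151 CPM.

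Saa3 (chromosome 7, 46711998 to 46715700), an acute-phase apolipoprotein, showed the widest gap of the 20 named genes. It had 6 UMIs in anterior and 2954 in posterior members (14.4 and 2041 CPM) and 0 in the mixed library. The posterior UMIs sat in 27 of 194 members (13.9%), and the 5 cells with most held 72.5% of them. Lcn2, the iron-sequestering lipocalin, stood at 45.5 and 509 CPM. All 19 anterior UMIs of Lcn2 came from 1 cell, and 34 posterior members had it, 5 of them with 72.1% of the UMIs. Hp, haptoglobin, stood at 45.5 and 387 CPM, with 86.4% of its posterior UMIs in 5 cells. Cd74, the invariant chain of antigen presentation, had 2 and 587 UMIs, a ratio of 0.0118 (95% interval 0.00143 to 0.0428). Of the posterior Cd74 UMIs, 271 (46.2%) lay in cluster 6, whose cells all passed the mesothelial gate. Without members of other gates Cd74 stood at 3.15 and 139 CPM, and its log2 ratio went from -3.06 to -1.83. The posterior UMIs of these 4 genes lay mostly in a few cells, whereas the 5 cells with most C3 held 21.2%.

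Fn1 stood at 177 and 909 CPM (log2 -2.08) and was seen in 35.5% and 62.9% of members. Trf, transferrin, Plac8 and the chemokine Ccl7 completed the 10 posterior-high genes, with log2 ratios of -1.85, -1.54 and -1.36. A single cell held 47.0% of the posterior Trf UMIs, and without members of other gates the log2 ratio of Trf was -0.67. Plac8, Hp, Lcn2 and Cd74 were also over 2-fold higher in the posterior library among the other barcodes (log2 -1.59, -2.59, -1.39 and -1.78). For these 4 the difference was thus seen outside the members too, but the other barcodes differed in make-up between the libraries. The epithelial, lymphocyte and macrophage gates held 0, 7 and 14 of the 338 anterior ones. In the posterior library they held 71, 65 and 59 of 540, and the part of this make-up was not tested. Macrophage markers moved the same way, from 7.19 in the anterior to 234 CPM in the posterior members. Without members of other gates, a choice that uses these markers, they stood at 3.15 and 9.08 CPM, and their part was not tested.

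Of the 10 anterior-high genes, Fgl2, a fibrinogen-like protein, stood at 445 and 156 CPM, a ratio of 2.85 (95% interval 2.34 to 3.48). Tbx20, a transcription factor of the heart, stood at 307 and 111 CPM and was seen in 53.8% and 30.4% of members. Apoe stood at 8622 and 3946 CPM, and Mt1, a metallothionein, at 6790.1 and 3273 CPM, both spread over most cells. In the other barcodes Apoe stood at 27119 and 18087 CPM, higher in the anterior library there too. Glia-gate barcodes were 150 of those 338 anterior and 163 of 540 posterior barcodes, and their part was not tested. Apod, a lipocalin, rested on 1 cell that held 78.1% of its anterior UMIs. An Apod UMI was seen in 16.1% of anterior but 25.3% of posterior members, so the share of cells did not follow the level. Posterior members were also deeper, and the part of depth in these shares was not tested. Hk2, Id2, Tiparp, Gstm5 and Gsn had log2 ratios of 1.14, 1.00, 0.97, 0.94 and 0.87. All 20 named genes kept their sign without the members of other gates. Within cluster 1 alone 9 of 20 passed 2-fold in the same direction: Fgl2, Tbx20, Hk2, Apod, Mt1 and Tiparp towards the anterior, and Cfb, Plac8 and Fn1 towards the posterior. The posterior-high genes Trf, Ccl7 and Saa3 had log2 ratios of the other sign in cluster 1 (0.69, 0.26 and 0.07), from few UMIs. Anterior and posterior cells of cluster 1 held 14 and 10 UMIs of Trf, 15 and 21 of Ccl7 and 1 and 1 of Saa3. The other 8 kept their sign below 2-fold, among them C3 (-0.56), Hp (-0.83), Lcn2 (-0.31) and Cd74 (-0.08). Hp, Lcn2 and Cd74 had 0 UMIs in the anterior cells of cluster 1 and 13, 4 and 1 in the posterior ones. At such counts the sign within cluster 1 says little.

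**Figure D5:**
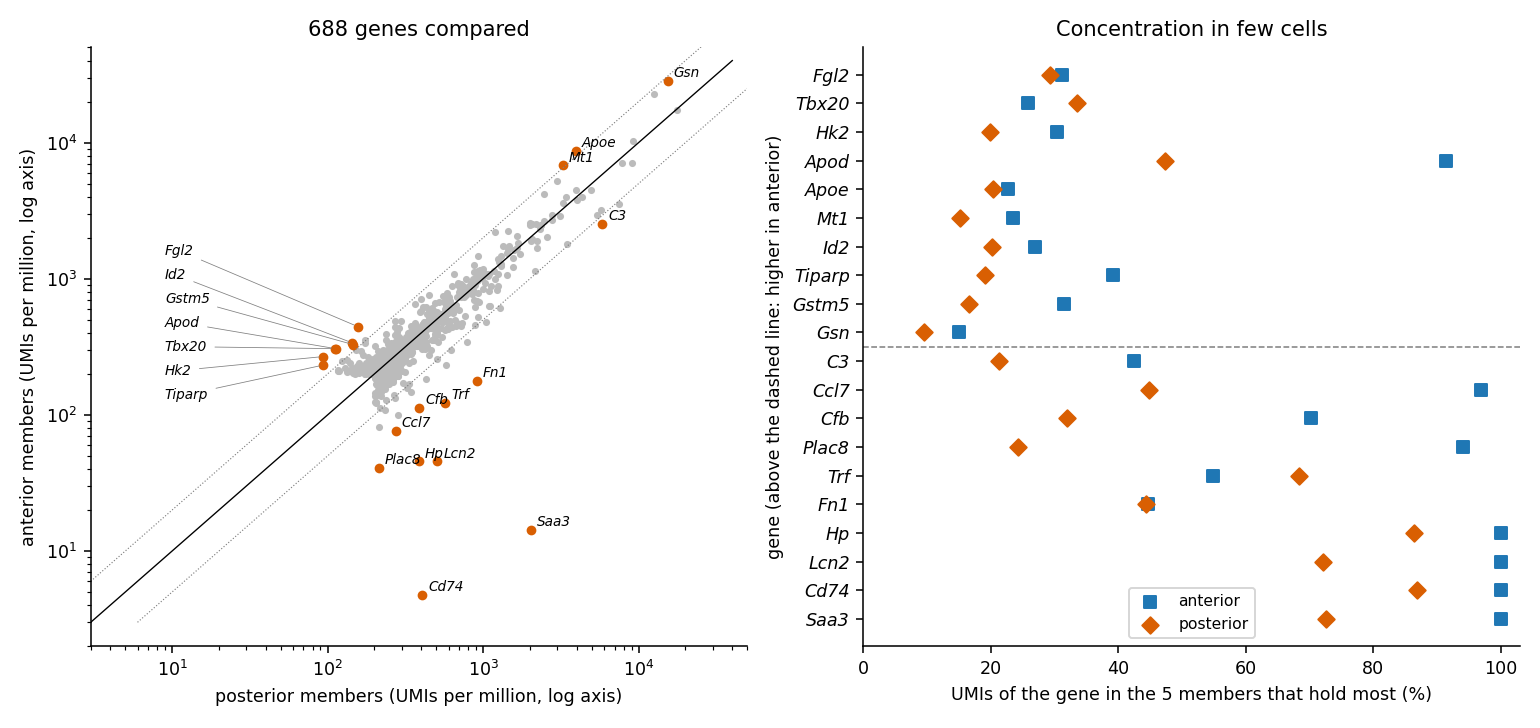
Left, levels of 688 genes in anterior against posterior members, in CPM on log axes, with the 20 named genes in orange and dotted lines at 2-fold. Right, share of a gene's UMIs held by the 5 cells with most, which reached 72.5% for Saa3 and stayed at 21.2% for C3 in the posterior library.

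Several posterior-high genes belong to the acute-phase response, so the 250 bases before the start of the 20 named genes were searched for 2 motifs of that response in RefSeq (GRCm38.p6) on both strands. The C/EBP motif was TTGCNNAA, and kappa B was searched by the letters of its consensus. Both were fixed patterns, so sites that depart from them were not counted. Of 10 anterior-high genes, all had an entry, and 0 held either motif. Of 10 posterior-high genes, 4 had an entry (C3, Plac8, Lcn2 and Saa3); all 4 held the C/EBP motif and 0 the kappa B motif, and for Plac8 it lay before 1 of its 2 starts. Among 32851 promoters of the same length, 9.56% held the C/EBP motif and 7.25% kappa B. Cfb, Ccl7, Trf, Fn1, Hp and Cd74 had no entry. A match describes the letters and is neither a bound site nor a cause. The promoters of C3 (chr17:57228137-57228386, minus strand) and Saa3 (chr7:46715677-46715926, minus strand) are shown with the motif in capitals, and that of Tbx20 (chr9:24774304-24774553, minus strand) as an anterior-high gene with no match.
C3: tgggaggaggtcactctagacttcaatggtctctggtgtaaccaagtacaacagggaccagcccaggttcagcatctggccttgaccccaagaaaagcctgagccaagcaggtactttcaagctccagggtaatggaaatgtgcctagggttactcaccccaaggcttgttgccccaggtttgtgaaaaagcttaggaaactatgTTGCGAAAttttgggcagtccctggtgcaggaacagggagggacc
Saa3: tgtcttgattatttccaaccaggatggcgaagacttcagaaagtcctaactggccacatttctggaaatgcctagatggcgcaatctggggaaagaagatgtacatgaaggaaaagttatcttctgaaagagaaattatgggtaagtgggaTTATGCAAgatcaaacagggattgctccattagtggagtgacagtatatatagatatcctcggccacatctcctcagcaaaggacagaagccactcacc
Tbx20: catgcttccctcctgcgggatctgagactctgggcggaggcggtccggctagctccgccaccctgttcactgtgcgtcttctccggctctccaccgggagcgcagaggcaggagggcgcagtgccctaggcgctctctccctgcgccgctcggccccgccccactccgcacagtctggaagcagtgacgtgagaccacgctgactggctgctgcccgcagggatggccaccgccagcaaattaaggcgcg
Between the motif and the start lay 37 bases in C3 and 91 bases in Saa3, where the motif reads on the other strand.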

How the data were processed

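Single-cell RNA counts of 3 libraries were used: the authors deposited raw UMI counts per gene and barcode, with no normalization. Per the file headers, Cell Ranger 3.1.0 wrote the mixed matrix and 6.1.2 the others; the submitters' processing notes name Cell Ranger 7.1.0, Seurat 4.4.2 and mm10. The features shared by all libraries (30406) were analysed, with 0 columns of no sample. Members and gene lists were chosen with earlier results of these data known.

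Counts were summed per library over members and over comparison barcodes (other barcodes, mural gate, glia gate) and fitted with edgeR 4.0.16 (R 4.3.3; TMM, filterByExpr, quasi-likelihood, library as replicate block because both sums come from 1 suspension). The pairing comes from the labels, which give each library as 1 sample. Named genes were the 12 highest and, for both gates, the 8 lowest log2 fold changes past the threshold, in 1 direction in all libraries and with at least 200 CPM. By region they were the 10 highest and 10 lowest log2 ratios with at least 200 CPM, 20 UMIs and a UMI in 10% of members. From lists, genes averaging 50 CPM or in lists of up to 8 genes were named, and the genes singled out below that were chosen after their values were seen. No doublet caller was run; members passing another class's gate were left out as an alternative, and leaving out the mesothelial and perineurial members too was chosen after seeing the data. Other alternatives changed the rule, the depth and neuron limits, the filter, the scaling and the libraries used. Clustering used scanpy 1.11.5 (1000 variable genes, 20 components, 15 neighbours), and intervals scipy 1.17.1 (Python 3.11.15). DESeq2 1.42.0 was an alternative test. Some genes within the lists and counts are not reported here by name. On simulated counts the fit recovered 40%, 32% and 40.4% of 2-fold and 97%, 97% and 100% of 4-fold changes for the other, mural and glia comparisons, and 4.86%, 3.01% and 0.714% of calls were false. The simulation changed 200 genes per comparison, each with at least 200 summed UMIs, and its spread was fixed rather than taken from the data. These rates are therefore not the error rates of the calls reported here.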

Additional observations from a re-analysis of the deposited data

How the results depend on the processing

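With no replicate block the counts were 800 higher and 979 lower against the other barcodes, 579 and 480 against the mural gate and 1367 and 1236 against the glia gate. Without the posterior library 720 were higher and 869 lower against the other barcodes; over the libraries left out 1 at a time the counts ran from 720 to 1408 and from 869 to 1614. For the mural gate they ran from 602 to 697 and from 495 to 565, and for the glia gate from 1105 to 1654 and from 993 to 1430. DESeq2 called 896 lower against the other barcodes, 418 higher and 379 lower against the mural gate, and 999 and 850 against the glia gate. No filter on low counts gave 2163 lower against the other barcodes and 1097 higher against the mural gate. A rule of 3 of 6 genes gave 339 and 280 against the mural gate, where Mylk4 lost its call (log2 fold change -0.01, adjusted p = 0.997). Towards the anterior, 14 genes passed 2-fold at a neuron limit of 5 per 10000, 12 without members of another gate, and 11 when mesothelial and perineurial gates were added, a choice made after seeing the data. The member share was 21.1% (mixed) at 5 of 6 genes. At 3 of 6 it was 42.7% (mixed), 26.0% (anterior) and 30.5% (posterior). With the rule genes read after thinning to 1000 UMIs it was 18.1%, 16.5% and 23.0%. In the anterior it was 29.0% at 2000 UMIs and 29.0% at a neuron limit of 5, which gave 36.4% in the posterior. The causes were not tested. No result reversed under these alternatives.

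Depth limits receptors and neurotrophic ligands most, since 3 counts over a library's members equal 5.04, 7.19 and 2.07 CPM. Region comparisons rest on 1 library each.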
